A study of Mus musculus with 5 samples.

Results

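Mdk and Ptn encode midkine and pleiotrophin, the 2 genes of a small family of secreted, heparin-binding growth factors. They were 2 of the 32285 genes counted in single cells of 5 mouse lungs, and they were found by their gene symbols. Mdk was chosen because earlier work on these data had shown it higher in knockout than in heterozygous general capillary cells, and Ptn as its family member. For this reason the difference in Mdk between genotypes in the whole library, the endothelial cells and the capillary cells is described here without a test.

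The lungs were dissociated whole from embryos at stage E18.5, shortly before birth. Per the labels, 2 embryos were Zswim8+/- (Het1 and Het2) and 3 were Zswim8-/- (KO1 to KO3); each embryo gave 1 library. There is no wild-type group, so the controls also carry 1 mutant allele. The labels name no strain, allele, promoter or Cre for the mutation, and no treatment. ZSWIM8 is the substrate adaptor of a ubiquitin ligase that removes Argonaute proteins, and with them their microRNAs, when a trigger RNA pairs with the microRNA.

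Midkine and pleiotrophin are known as signals that pass from mesenchyme to neighbouring cells in the embryo and that fall in most tissues after birth. Both bind the glycosaminoglycan chains of syndecans, glypicans and the receptor phosphatase PTPRZ1. Reported receptors also include LRP1, ALK, integrins and NOTCH2. In the embryonic lung, mesenchyme lies next to the branching epithelium and the growing capillary network.

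After filtering, the Het lungs held 4634 and 4063 cells and the KO lungs 3051, 3236 and 3885. Throughout, the values of a group stand in the order Het1, Het2 or KO1, KO2, KO3. The deposited libraries held between 56608582 and 93708304 unique molecular identifiers (UMIs, each counting 1 captured RNA molecule). By UMIs of Y-linked genes, KO1 and KO2 were female and the other 3 embryos male. Zswim8 itself stood at 36.2 to 40.9 CPM (UMIs of a gene per 1000000 UMIs of the same sum) in the 5 libraries and was not lower in the knockout, so its level did not check the genotype labels. Between 0 and 6 cell barcodes were shared by a pair of libraries. Nothing in the labels says whether the embryos shared a litter, and p-values measure the spread between these 5 embryos.

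Mdk (ENSMUSG00000027239) lies on the minus strand at chr2:91929805-91932297 of GRCm38, and Ptn (ENSMUSG00000029838) on the minus strand at chr6:36714929-36810220. No other annotated gene overlaps either of them in GENCODE M21. Because ZSWIM8 acts through microRNAs, the 3′ UTRs of both genes were searched for the 7 letters that pair with bases 2 to 8 of 5 microRNAs known from work on ZSWIM8. The microRNAs themselves were not measured here. Their mature sequences, from RefSeq, are printed with bases 2 to 8 in capitals:
mmu-miR-322-5p: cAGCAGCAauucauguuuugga
mmu-miR-503-5p: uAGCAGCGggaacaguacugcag
mmu-miR-7a-5p: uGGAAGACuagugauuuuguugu
mmu-miR-335-3p: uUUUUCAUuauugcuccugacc
mmu-miR-29b-3p: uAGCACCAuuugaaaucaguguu

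Matches were found for miR-7a-5p (motif GTCTTCC) in both genes and for miR-322-5p (motif TGCTGCT) in Ptn. The Mdk match, at chr2:91929991-91929997, is in the 3′ UTR of all 4 protein-coding transcripts of Mdk. Each Ptn match, at chr6:36740650-36740656 for miR-7a-5p and at chr6:36741045-36741051 for miR-322-5p, is in 1 of 2 protein-coding transcripts. Both lie well upstream of the 3′ end of the gene, which is at chr6:36714929 on the minus strand. How much of the Ptn RNA carries them was not measured. They read as follows on the transcribed strand, with the match in capitals:
Mdk, miR-7a-5p: ccaccagtgccttttGTCTTCCtg
Ptn, miR-7a-5p: agtactgaattccatGTCTTCCaa
Ptn, miR-322-5p: ggcagttaagatggcTGCTGCTtg

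For comparison, the longest 3′ UTR of each of 21016 protein-coding genes was searched on the transcribed strand. Of these, 11.9% held GTCTTCC and 20.3% held TGCTGCT. For Mdk and Ptn the 3′ UTR of every protein-coding transcript was searched, so the searches are not alike. Those 3′ UTRs had 124 to 285 letters in Mdk, and 778 and 1799 letters in Ptn. The motifs CGCTGCT (miR-503-5p), ATGAAAA (miR-335-3p) and TGGTGCT (miR-29b-3p) were in 3.94%, 19.8% and 13.1%, and none of these 3 was in the 3′ UTR of Mdk or Ptn. A match of 7 letters is a description of the sequence, not evidence of binding.

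Both genes were expressed chiefly by mesenchymal cells. Mesenchymal cells made up 11.4% and 12.5% of the cells of the Het lungs and 23.9%, 14.8% and 19.5% of those of the KO lungs. They held 78.4% and 62.0% of the Mdk UMIs of the Het lungs and 73.8%, 64.4% and 73.9% of those of the KO lungs. Of the Ptn UMIs they held 86.5% and 85.4% in the Het lungs, and 94.1%, 87.8% and 91.3% in the KO lungs. Mesothelial-like cells, counted outside the mesenchymal cells, were 0.842% and 1.97% of the Het cells and 2.39%, 1.95% and 1.62% of the KO cells. They held 5.33% and 25.5% of the Mdk UMIs of the Het lungs and 11.6%, 7.79% and 6.53% of those of the KO lungs. For Ptn these shares were 7.43% and 10.1% in the Het and 3.47%, 6.73% and 3.59% in the KO lungs.

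Levels were set side by side in 28 classes, 27 of them named for their markers (AT2-like, for cells with AT2 markers) and 1 mesenchymal cluster without a name. Mixed clusters and the other unnamed clusters were left out of this order. Among them were mixed cluster 30, with 11 of 12 pericyte markers (Het mean 141 CPM of Mdk and 41.3 CPM of Ptn), and cluster 44, led by Ttn and Myh6 (106 and 158 CPM). By the mean of the 2 Het libraries, the 5 highest classes for Mdk were cycling adventitial fibroblast-like cells (632 and 774 CPM), mesenchymal cluster 28 (588 and 805 CPM), myofibroblast-like cells (628 and 604 CPM), adventitial fibroblast-like cells (553 and 564 CPM) and alveolar fibroblast-like cells (490 and 479 CPM). In Het values, mesenchymal cluster 28 overlapped both the cycling adventitial fibroblast-like and the myofibroblast-like cells, which did not overlap each other. Adventitial fibroblast-like cells lay below these 3 classes, and alveolar fibroblast-like cells below those, without overlap. Mesothelial-like cells (186 and 468 CPM) and smooth muscle-like cells (272 and 340 CPM) followed and overlapped each other.

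Ptn had a narrower pattern. Adventitial fibroblast-like cells, which surround vessels and airways, were highest with 2115 and 2192 CPM in the Het lungs. Cycling adventitial fibroblast-like cells followed with 1142 and 1053 CPM from 14 and 8 cells, below the first class without overlap. Mesenchymal cluster 28, led by Trac, a T-cell receptor gene, then by Ccl11 and Rgs5, and given no name, had 731 and 1449 CPM and overlapped that class. Alveolar fibroblast-like cells had 489 and 586 CPM, and mesothelial-like cells 321 and 244 CPM, each below its neighbour without overlap. Every other class was under 50 CPM in both Het libraries.

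Myofibroblast-like cells, which lay down elastic fibres at the alveolar entrance, carried Mdk with almost no Ptn. Their Mdk level was 628 and 604 CPM in the Het lungs, and 604, 921 and 899 CPM in the KO lungs. Their Ptn came to 7 and 13 UMIs in 124 and 115 Het cells and to 1, 2 and 3 UMIs in 110, 77 and 125 KO cells. Those 7 UMIs lay in 1 cell of Het1 and the 13 UMIs in 2 cells of Het2, and Ptn did not pass the filter on low counts there.

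The alveolar fibroblast-like class was made of 2 clusters that differed in Ptn. Cluster 1, led by Tcf21, Penk and Dpep1, had 599 and 687 CPM of Ptn in the Het lungs, and 1156, 1201 and 941 CPM in the KO lungs. Cluster 42, led by Col25a1, Wnt2 and Col13a1, had 51.3 and 20.3 CPM in the Het lungs and 9.63, 8.57 and 50.8 CPM in the KO lungs. In each of the 5 libraries Ptn was lower in cluster 42 than in cluster 1. Mdk did not separate the clusters in this way, with 475 to 692 CPM in cluster 1 and 329 to 748 CPM in cluster 42. Cluster 42 held 35 and 23 cells in the Het lungs, and 112, 70 and 96 cells in the KO lungs, beside 117 to 143 cells of cluster 1 in each library. Ptn and Mdk were left out of the genes used for clustering, but genes that vary with them were not, so the clusters give no test of this difference.

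**Figure D1:**
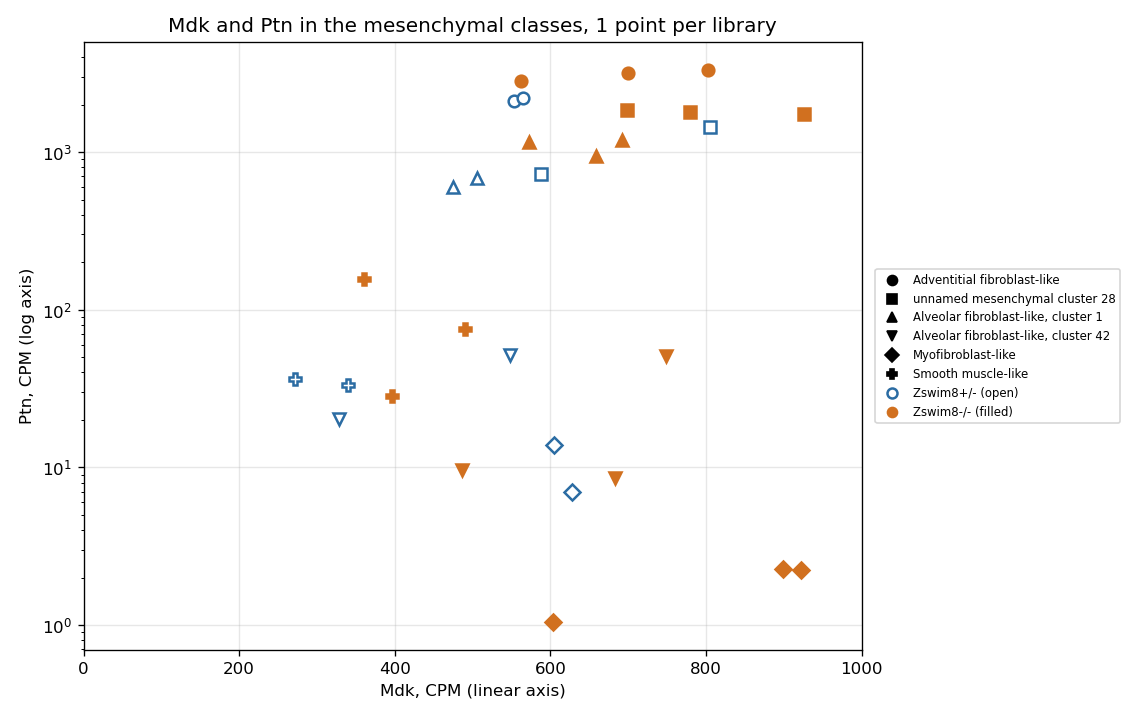
Level of Mdk (linear axis, CPM) against Ptn (log axis, CPM) in 6 mesenchymal classes or clusters, 1 point per library, open for Zswim8+/- and filled for Zswim8-/-. Myofibroblast-like cells and cluster 42 overlap the adventitial fibroblast-like cells along the Mdk axis, but sit at 1.04 to 51.3 CPM of Ptn against 2115 to 3314 CPM.

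Epithelial and endothelial classes held little of either gene in the Het lungs. Among endothelial classes, lymphatic-like cells had 71.7 and 50.8 CPM of Mdk and arterial-like cells 41.97 and 79.0 CPM. General capillary-like cells had 7.03 and 15.7 CPM and aerocyte-like cells, the thin capillary cells of gas exchange, 10.0 and 11.9 CPM. Among epithelial classes, club-like cells had 48.4 and 57.7 CPM of Mdk, ciliated-like cells 23.2 and 24.9 CPM, AT2-like cells 11.1 and 12.7 CPM and AT1-like cells 1.58 and 3.70 CPM. Club-like cells were the highest epithelial class for Ptn, at 47.9 and 22.8 CPM.

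The 11 named blood-cell classes stood between 0 and 16.8 CPM of Mdk and 0 and 7.18 CPM of Ptn, apart from T, NK or innate lymphoid-like cells of KO3. In those, 38 cells gave 38.7 CPM of Mdk and 97.9 CPM of Ptn, and 42 of the 43 Ptn UMIs lay in 1 cell. Of the Mdk UMIs there, 12 of 17 lay in 1 cell.

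Free RNA was read from red-cell barcodes, which had over 50% haemoglobin UMIs and under 500 genes and should lack both genes. They held 0.00773 and 0.00858 Mdk UMIs per barcode in the Het lungs, and 0.0257, 0.0171 and 0.0221 in the KO lungs. For Ptn the values were 0.00334 and 0.00548 per Het barcode, and 0.0145, 0.00579 and 0.0152 per KO barcode. Free Mdk RNA per barcode was higher in every KO library than in either Het library, and also per 1000000 UMIs outside haemoglobin (15.5 and 22.0 against 48.0, 38.6 and 44.1). For Ptn the order depended on the measure, since KO2 and Het2 held 23 UMIs each and KO2 lay below Het2 per 1000000 UMIs outside haemoglobin (13.1 against 14.03). A red-cell barcode held a median of 2328 to 2622 UMIs, fewer than most kept cells. How well its free RNA measures that in the droplet of such a cell was not tested.

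**Figure D2:**
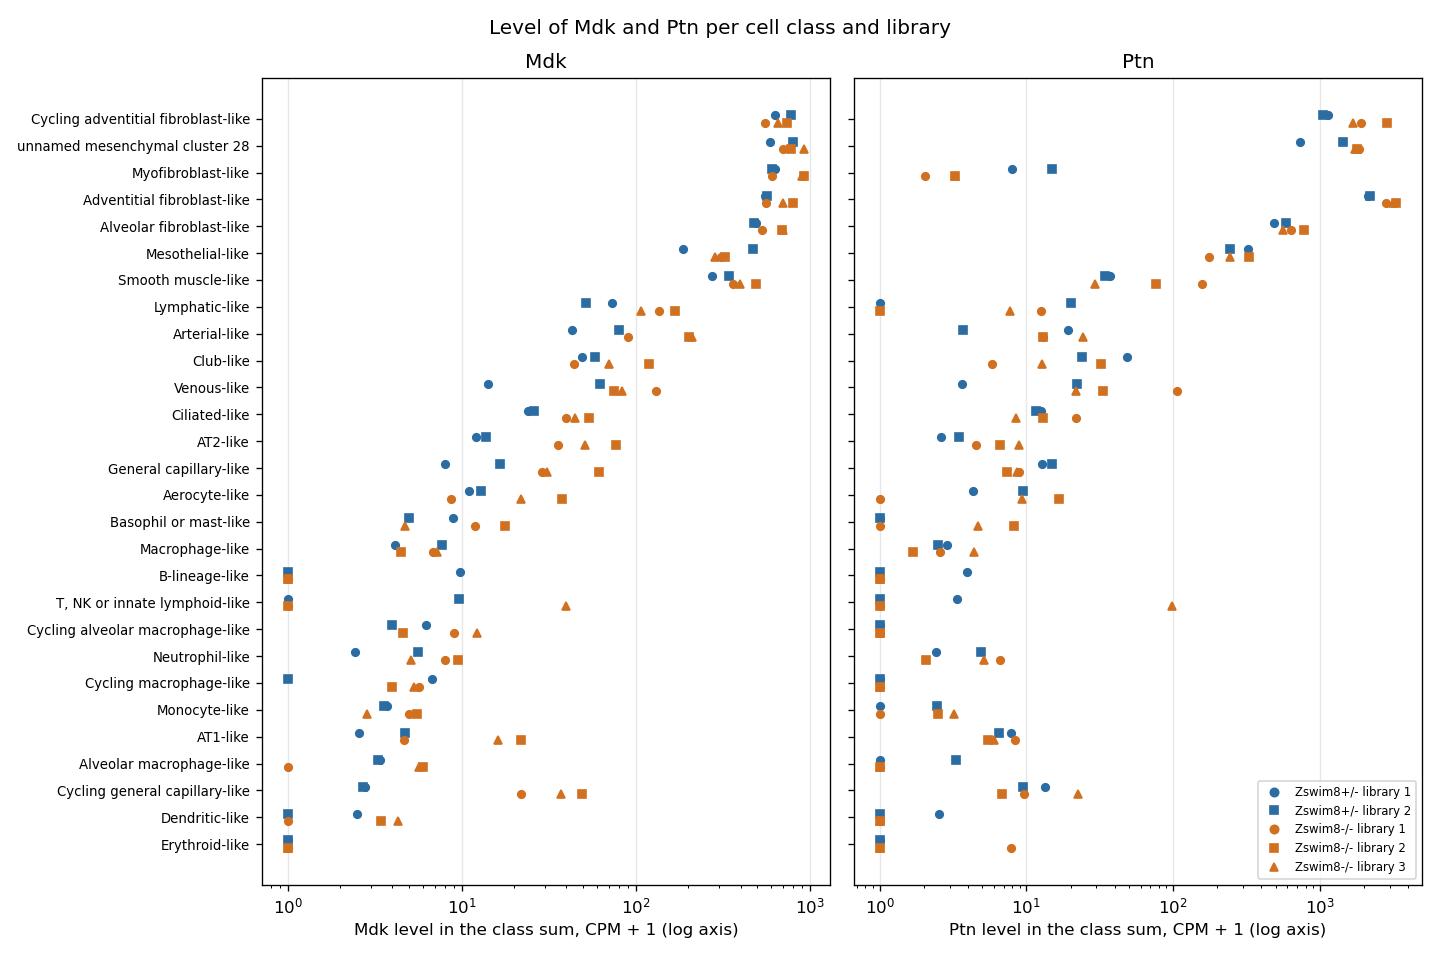
Level of Mdk (left) and Ptn (right) in 28 classes, as CPM + 1 of the class sum on a log axis, 1 point per library, classes ordered by Mdk in the Het lungs. Mesenchymal classes lie at the top for Mdk, while for Ptn the myofibroblast-like cells fall below 15 CPM.

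The genotypes were then compared on UMIs summed per library over each lineage and each class. In the epithelium Mdk was higher in the knockout. Its epithelial level was 17.3 and 18.1 CPM in the Het lungs, and 35.1, 69.2 and 47.9 CPM in the KO lungs, with no overlap of the groups. The log2 fold change was 1.52 (SE 0.23, edgeR quasi-likelihood adjusted p = 0.00790), in a fit that called 7.8% of 14915 genes at an adjusted p under 0.05. Without Het2 the adjusted p was 0.0552 with a log2 fold change of 1.55. With embryo sex added as a covariate the adjusted p was 0.0240. The epithelial sum mixes the level in each class with the balance of classes: AT1-like cells, low in Mdk, were 201 of 890 and 187 of 666 epithelial cells in the Het lungs and 35 of 333, 45 of 359 and 85 of 441 in the KO lungs. Mesenchymal markers in the epithelial sum were at 520 and 544 CPM against 673, 645 and 771 CPM, and the part of either in the Mdk difference was not tested.

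AT2-like cells, the surfactant-making cells of the alveolus, had the lowest adjusted p for Mdk among the classes tested. They had 11.1 and 12.7 CPM of Mdk in the Het lungs, and 34.6, 76.1 and 49.98 CPM in the KO lungs. Every KO library lay above both Het libraries. Mdk rose by a log2 value of 2.12 (SE 0.28, edgeR adjusted p = 0.000831) in a fit that called 15.2% of the genes tested. With sex as a covariate the adjusted p was 0.0131. The 9 mesenchymal markers were also higher in every KO library there, at 576 and 650 against 778, 767 and 839 CPM, which is 2.46% and 2.31% against 3.02%, 3.34% and 2.83% of their mesenchymal level. Mdk in the same cells was at 2.19% and 2.32% of its mesenchymal level in the Het lungs and at 6.45%, 10.6% and 7.23% in the KO lungs. The part of the markers in the Mdk difference was not tested. The share of AT2-like cells with an Mdk UMI, after each cell was thinned to 2000 UMIs, was 1.46% and 1.13% in the Het lungs and 8.38%, 11% and 9.32% in the KO lungs. Thinning left out 2 and 1 Het cells and 7, 0 and 3 KO cells, and the shares before it were 13.1% and 18.7% in the Het and 31.7%, 57.0% and 45.7% in the KO lungs. In red-cell barcodes, at their lower depth, the shares were 0.743% and 0.834% in the Het and 2.52%, 1.69% and 2.15% in the KO lungs.

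The AT2-like class was made of 2 clusters whose balance differed between the groups. Cluster 19 held 214 and 125 cells of the Het lungs, and 44, 38 and 89 cells of the KO lungs, and cluster 27 held 130, 142, 142, 162 and 193 cells in the same order. Cluster 27 also carried endothelial marker RNA, at 20.5% and 20.3% of the endothelial level in the Het lungs, and 5.51%, 4.09% and 5.91% in the KO lungs, with all 10 markers found in each library. In cluster 19 these markers stood at 0.499% to 0.719% of the endothelial level in all 5 libraries. The name of cluster 27, which had 12 of 12 AT2 markers but 1 among its top 10 genes and a median of 33085 UMIs per cell, depended on the clustering. A cluster with much the same leading genes (Cldn18, Tinag, Egfl6) was AT1-like at resolution 1 and unnamed with doublets kept.

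Mdk was higher in the knockout within each of the 2 clusters. In cluster 19 it stood at 8.01 and 5.49 CPM in the Het lungs and at 44.2, 57.6 and 27.4 CPM in the KO lungs. This gives a log2 fold change of 2.35 (SE 0.32, edgeR adjusted p = 5.03e-05), in a fit that called 4.62% of its genes. Mesenchymal markers, all 9 summed, were at 376 and 361 CPM in the Het and 499, 397 and 460 CPM in the KO lungs of cluster 19, with Pdgfra or Pdgfrb at 0 in 3 of the 5. Mdk per cell there stood at 0.131 and 0.0880 UMIs in the Het lungs and at 0.636, 1.03 and 0.517 in the KO lungs. Red-cell barcodes held at most 0.0257 Mdk UMIs each. Cluster 19 cells had a median of 14796 UMIs against 2328 to 2622 in red-cell barcodes. How well the barcodes measure free RNA in such cells was not tested. The part of free RNA and of mesenchymal marker RNA in the Mdk difference was not tested. In cluster 27, which held most of the Mdk UMIs of the class (75, 101, 158, 719 and 582 over the 5 libraries), the log2 fold change was 1.99 (SE 0.29, edgeR adjusted p = 0.00151), in a fit that called 15.3% of its genes. Mesenchymal markers there were at 697 and 735 against 816, 794 and 897 CPM, and their part was not tested. With the clusters of resolution 1 the AT2-like class gave a log2 fold change of 2.00 for Mdk (edgeR adjusted p = 0.00173).

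AT1-like cells, the flat cells of gas exchange, had 3 and 8 Mdk UMIs in the Het lungs, and 1, 14 and 15 in the KO lungs. These are 1.58 and 3.70 CPM against 3.68, 21.0 and 15.2 CPM, so KO1 lay within the Het range. The edgeR adjusted p was 0.0199 for a log2 fold change of 2.47 (SE 0.56), with 1.6% of genes called. It rose to 0.0512 with doublets kept, to 0.164 with sex as a covariate, to 0.367 without Het1 and to 0.147 without Het2.

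Ciliated-like cells had 23.2 and 24.9 CPM of Mdk in the Het lungs, and 38.9, 52.7 and 43.9 CPM in the KO lungs. Mdk rose by a log2 value of 0.91 (SE 0.17, edgeR adjusted p = 0.0240, 0.864% of genes called). It was no longer called with sex as a covariate (0.108), without Het1 (0.280), without Het2 (0.172) or without KO2 (0.161). Per cell, ciliated-like cells held 1.49 and 2.09 Mdk UMIs in the Het lungs and 1.41, 4.24 and 2.41 in the KO lungs, so by this measure KO1 lay below both Het libraries. Club-like cells had 48.4 and 57.7 CPM against 43.2, 118 and 69.0 CPM, and Mdk did not pass there (edgeR adjusted p = 0.725, 1.51% of genes called). Mesenchymal markers were at 570 and 560 against 651, 504 and 723 CPM in AT1-like cells and at 295 and 265 against 379, 328 and 453 CPM in ciliated-like cells, and their part was not tested.

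In endothelial cells, where Mdk had been chosen, its sum was 17.0 and 27.1 CPM in the Het lungs, and 70.3, 90.2 and 88.2 CPM in the KO lungs (log2 fold change 1.95, SE 0.20), in a fit that called 5.35% of genes. Mesenchymal markers there were at 794 and 1029 CPM in the Het lungs and 1174, 727 and 1118 CPM in the KO lungs, and their part was not tested. The sum also mixes level with class balance: aerocyte-like cells, low in Mdk, were 213 of 432 and 145 of 297 endothelial cells in the Het lungs and 15 of 289, 19 of 289 and 26 of 297 in the KO lungs, while lymphatic-like cells, higher in Mdk, numbered 12 and 6 against 38, 20 and 32. General capillary-like cells had 7.03 and 15.7 CPM from 6 and 9 UMIs in the Het lungs, and 27.96, 60.8 and 29.9 CPM from 32, 104 and 47 UMIs in the KO lungs (log2 fold change 1.91, SE 0.48, 0.333% of genes called). In Het2, 6 of the 9 UMIs lay in 1 cell. The log2 fold change was 0.94 with a stricter filter on cells and 3.66 when cells with markers of another lineage were left out.

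The 9 mesenchymal markers together were at 616 and 797 CPM in the Het lungs and at 480, 464 and 602 CPM in the KO lungs of these capillary cells. Their part in the Mdk difference was not tested. Pdgfrb was at 0 in both Het libraries and Pdgfra in KO1. As a share of its mesenchymal level in the same library, Mdk was at 1.38% and 2.86% in the Het and at 5.21%, 8.43% and 4.33% in the KO general capillary-like cells. Per cell, Mdk came to 0.0612 and 0.129 UMIs in the Het lungs against 0.230, 0.717 and 0.348 in the KO lungs. Red-cell barcodes held 0.00773 and 0.00858 Mdk UMIs each in the Het lungs and 0.0257, 0.0171 and 0.0221 in the KO lungs. Set against the red-cell value of its library, the level per cell was 7.92 to 41.9 times as high, with KO1 within the Het range. The part of free RNA in the Mdk difference was not tested here. An Mdk UMI was found in 4.08% and 5.71% of Het cells and in 18.7%, 37.2% and 20.7% of KO cells. After thinning to 2000 UMIs, 0% and 3.17% of 97 and 63 Het cells had an Mdk UMI, and 5.93%, 12.4% and 1.49% of 135, 145 and 134 KO cells. Thinned in this way the groups overlapped, since KO3 lay below Het2. The count of 0 among 97 Het1 cells allows up to 3.09% of cells with a UMI at that depth and is no limit on cells expressing Mdk.

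The other endothelial classes were small. Cycling general capillary-like cells gave 1 Mdk UMI in each Het library, from 45 and 33 cells, and 12, 50 and 25 UMIs from 38, 47 and 36 KO cells, in a fit that called 2.36% of genes. In CPM these were 1.77 and 1.70 against 20.9, 48.3 and 36.0. Arterial-like cells stood at 41.97 and 79.0 CPM in the Het lungs and 89.5, 201 and 209 CPM in the KO lungs, from 19 to 49 cells, with mesenchymal markers at 1520 and 1800 against 1737, 1441 and 1863 CPM. The exact Poisson 95% intervals, which cover counting error only, were 28.7 to 59.2 and 52.9 to 113 CPM for the Het and 66.9 to 117, 170 to 236 and 182 to 239 CPM for the KO libraries. Lymphatic-like cells had 71.7 and 50.8 CPM against 135, 166 and 106 CPM, from 6 to 38 cells. In aerocyte-like cells, 10.0 and 11.9 CPM stood against 7.73, 36.7 and 20.8 CPM, so these overlapped.

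**Figure D3:**
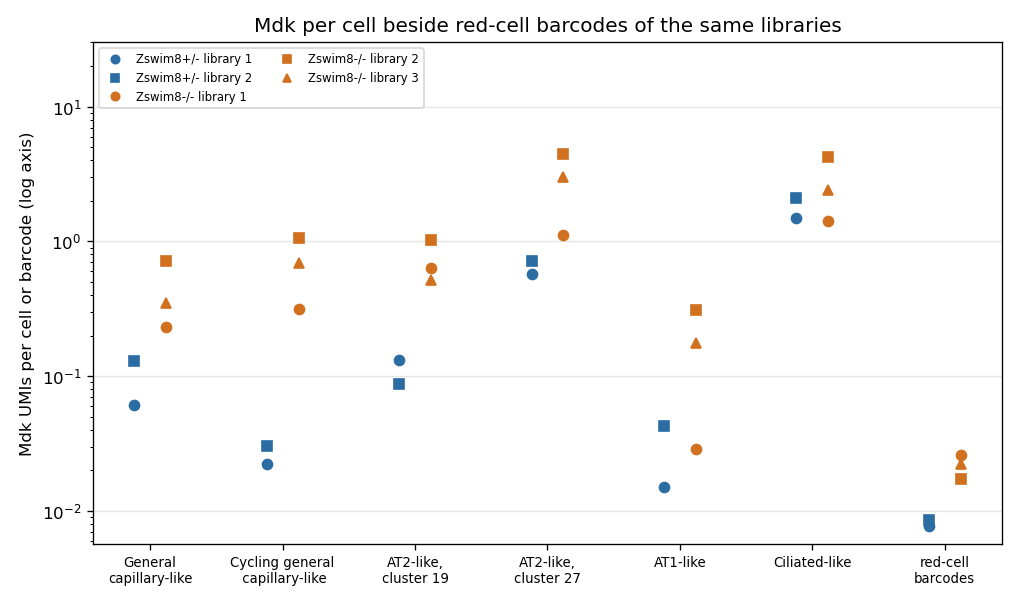
Mdk UMIs per cell (log axis) in capillary and epithelial classes, beside the UMIs per red-cell barcode of the same library, 1 point per library. In the general capillary-like cells and in both AT2-like clusters every Zswim8-/- library lies above both Zswim8+/- libraries. The red-cell barcodes have the same order, at 0.00773 and 0.00858 in the Zswim8+/- and 0.0257, 0.0171 and 0.0221 in the Zswim8-/- libraries.

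In the mesenchyme, where Mdk was highest, it did not pass the test between genotypes. The mesenchymal sum was 508 and 548 CPM in the Het lungs, and 536, 721 and 691 CPM in the KO lungs, so KO1 lay within the Het range. Mdk differed by a log2 value of 0.33 (SE 0.12, edgeR adjusted p = 0.266), in a fit that called 0.861% of genes. In the 6 mesenchymal and mesothelial class fits Mdk passed in 0 by edgeR, with log2 fold changes from -0.10 in mesothelial-like cells to 0.44 in smooth muscle-like cells. Those fits called 0.0% of genes in mesothelial-like cells and cluster 28, 0.0115% in smooth muscle-like, 0.243% in adventitial fibroblast-like, 1.9% in myofibroblast-like and 3.34% in alveolar fibroblast-like cells. Without KO1, Mdk passed in alveolar fibroblast-like cells (log2 fold change 0.50, edgeR adjusted p = 0.00197) and in myofibroblast-like cells (0.55, edgeR adjusted p = 0.0262). Alveolar fibroblast-like cells had 490 and 479 CPM of Mdk in the Het lungs and 533, 689 and 697 CPM in the KO lungs, without overlap. Over all 10 class fits outside blood cells in which Mdk was tested, it passed in 3 by edgeR and in 2 by DESeq2.

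For Ptn the mesenchyme is again where levels were highest. The mesenchymal sum was 694 and 994 CPM in the Het lungs, and 1304, 1155 and 1322 CPM in the KO lungs, every KO library above both Het libraries. The log2 fold change of 0.61 (SE 0.14) did not pass in edgeR (adjusted p = 0.0991) and passed in DESeq2 (adjusted p = 0.00210). Over the 4 lineage fits Ptn passed in 0 by edgeR, with 1 at an unadjusted p under 0.05, and in 1 by DESeq2. Adventitial fibroblast-like cells, highest in Ptn, were 88 of 528 and 128 of 509 mesenchymal cells in the Het lungs and 195 of 729, 81 of 478 and 211 of 756 in the KO lungs, so the sum also mixes level with class balance. Per cell class, Ptn passed in 2 of the 9 class fits outside blood cells in which it was tested.

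Adventitial fibroblast-like cells were 1 of these. They had 2115 and 2192 CPM of Ptn in the Het lungs, and 2816, 3314 and 3164 CPM in the KO lungs, without overlap. The log2 fold change was 0.55 (SE 0.11, edgeR adjusted p = 0.0440) in a fit that called 0.243% of genes. The adjusted p rose to between 0.111 and 0.277 without Het1, Het2, KO2 or KO3, to 0.261 with sex as a covariate, to 0.0525 with doublets kept, to 0.0705 with a stricter filter on cells and to 0.0829 at a coarser clustering. Across these settings the size of the change stayed between 0.51 and 0.64.

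Within alveolar fibroblast-like cells the direction of Ptn depended on how the clusters were joined. Over the whole class Ptn was 489 and 586 CPM in the Het lungs, and 632, 779 and 560 CPM in the KO lungs (log2 fold change 0.31, SE 0.15, edgeR adjusted p = 0.330). With coarser clusters it reversed to -0.92 (edgeR adjusted p = 0.00555), and with a stricter filter on cells to -0.58 (edgeR adjusted p = 0.0715). In cluster 1 alone the values given above make a log2 fold change of 0.83 (SE 0.14, edgeR adjusted p = 0.00521), in a fit that called 1.68% of genes. That call was lost without Het1 (0.126), without Het2 (0.0966) and with sex as a covariate (0.162). Cluster 42, low in Ptn, gave 35 of 155 and 23 of 140 cells of the class in the Het lungs, against 112 of 255, 70 of 198 and 96 of 239 in the KO lungs.

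The other mesenchymal classes varied more between libraries. Mesenchymal cluster 28 had 731 and 1449 CPM of Ptn in the Het lungs, and 1851, 1804 and 1746 CPM in the KO lungs (log2 fold change 0.74, SE 0.21, edgeR adjusted p = 0.316). It passed without Het2 (edgeR adjusted p = 4.64e-05). Smooth muscle-like cells had 36.4 and 33.5 CPM against 157, 76.0 and 28.4 CPM, so KO3 lay below both Het libraries (edgeR adjusted p = 0.553). Within them cluster 39 had 11.1 and 2.50 CPM against 78.2, 66.2 and 9.80 CPM (edgeR adjusted p = 0.200, 0.267% of genes called), and passed without KO3 (edgeR adjusted p = 0.000248). In mesothelial-like cells, which were counted outside the mesenchymal sum, Ptn overlapped between the groups, at 321 and 244 against 175, 328 and 244 CPM.

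In the epithelial and endothelial classes large enough for a fit, Ptn was low in both groups. AT2-like cells had 1.62 and 2.50 CPM in the Het lungs, from 15 and 22 UMIs, and 3.53, 5.62 and 7.96 CPM in the KO lungs, from 19, 56 and 100 UMIs. This was the other class called for Ptn (log2 fold change 1.48, SE 0.35, edgeR adjusted p = 0.0205), and the call was lost without Het1 (0.190), without Het2 (0.0798), without KO3 (0.0657) and with a stricter filter on cells (0.131). Within the class it was called in cluster 27 (edgeR adjusted p = 0.0383) but not without Het1 (0.274), Het2 (0.131), KO2 (0.0502) or KO3 (0.119), while cluster 19 held 3, 0, 0, 1 and 9 Ptn UMIs over the 5 libraries and gave no test. The part of the mesenchymal markers given above, higher in every KO library of this class, was not tested for Ptn. General capillary-like cells had 11.7 and 13.9 CPM of Ptn in the Het and 7.86, 6.43 and 7.63 CPM in the KO lungs, from 8 to 12 UMIs each (log2 fold change -0.82, edgeR adjusted p = 0.570). Club-like cells had 47.9 and 22.8 CPM against 4.80, 31.5 and 11.7 CPM (edgeR adjusted p = 0.296). The epithelial sum of Ptn was 9.66 and 6.47 CPM against 7.57, 8.02 and 7.89 CPM (edgeR adjusted p = 0.906), and the endothelial sum 8.73 and 11.2 against 17.5, 8.52 and 13.3 CPM (edgeR adjusted p = 0.480). In both lineages the groups overlapped. Ciliated-like cells had 11.7 and 10.6 against 20.8, 11.9 and 7.54 CPM of Ptn, and AT1-like cells 6.86 and 5.56 against 7.36, 4.51 and 5.06 CPM from 2 to 13 UMIs each. Among the classes too small for a fit, cycling adventitial fibroblast-like cells had 1142 and 1053 against 1911, 2867 and 1676 CPM of Ptn, from 7 to 21 cells, every KO library above both Het libraries. Venous-like cells had 2.64 and 21.2 against 106, 32.2 and 20.7 CPM of Ptn, and 13.2 and 61.1 against 129, 73.7 and 82.6 CPM of Mdk, from 13 to 24 cells.

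**Figure D4:**
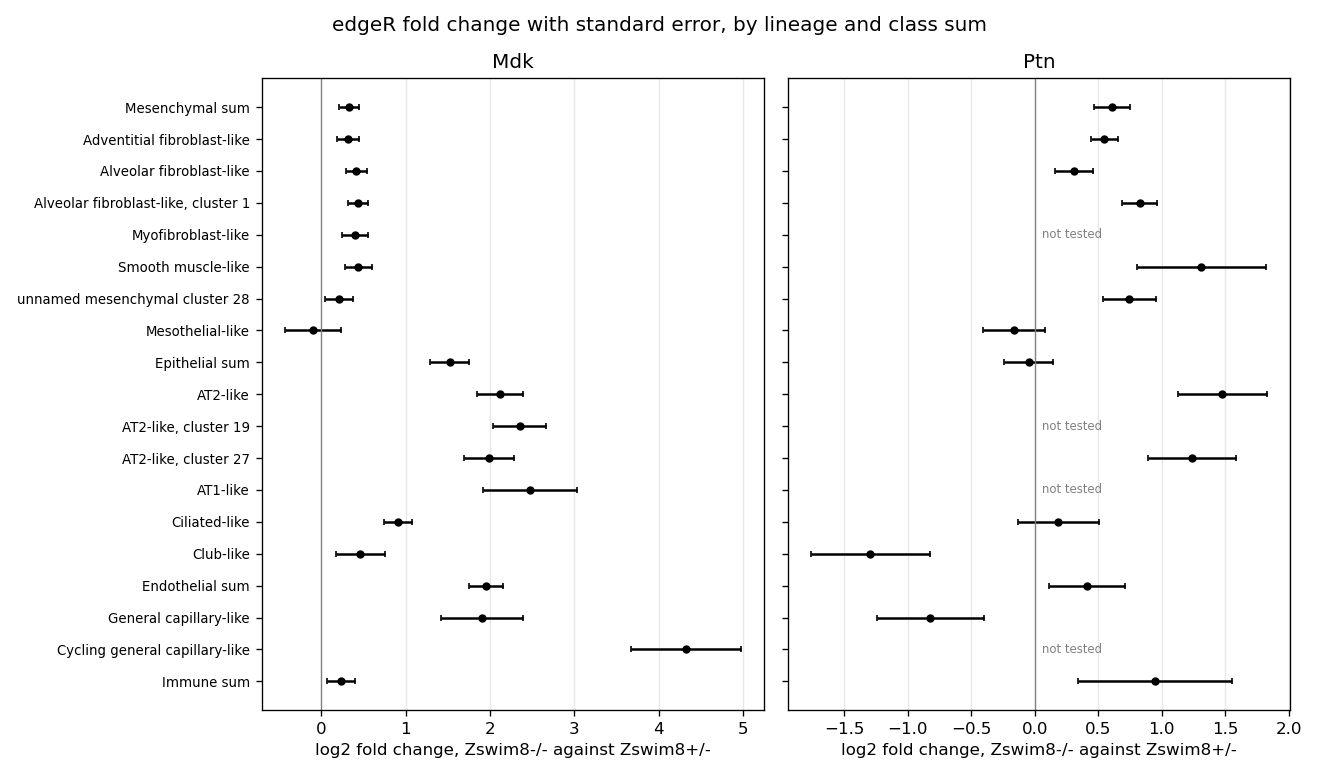
Log2 fold change of Mdk (left) and Ptn (right) between Zswim8-/- and Zswim8+/- libraries, as edgeR estimates with standard errors, by lineage and class sum; genes under the filter on low counts are marked as not tested. Mdk lies at 0.21 to 0.44 in the mesenchymal fits and at 0.91 to 2.47 in the AT1-like, AT2-like and ciliated-like fits, and Ptn runs from -1.30 in club-like cells to 1.48 in AT2-like cells.

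Over the whole library the level of both genes combines their level per cell with the number of mesenchymal cells, and these cannot be told apart there. Mdk stood at 63.9 and 86.9 CPM in the Het lungs and at 156, 134 and 146 CPM in the KO lungs. Ptn stood at 79.2 and 114 CPM in the Het and at 298, 157 and 227 CPM in the KO lungs (log2 fold change 1.21, SE 0.30, edgeR adjusted p = 0.0819, 3.68% of genes called). KO1, with the largest share of mesenchymal cells, was the highest library for both genes.

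The immune sum held 4.76 and 4.28 CPM of Mdk in the Het lungs, and 5.26, 4.69 and 6.64 CPM in the KO lungs (log2 fold change 0.24, edgeR adjusted p = 0.452, 7.82% of genes called). Per cell this is 0.0551 to 0.0903 UMIs, beside 0.00773 to 0.0257 per red-cell barcode. Ptn was at 0.556 to 3.43 CPM (edgeR adjusted p = 0.405). Of 9 immune class fits, Mdk was tested in 6 and passed in 0 by edgeR, with 2 at an unadjusted p under 0.05, and in 0 by DESeq2. Ptn passed the filter on low counts in 0 of the 9. These fits called 0.0% of genes in monocyte-like, 0.0554% in neutrophil-like and 1.19% in macrophage-like cells, and 2.3%, 2.09%, 0.682%, 2.2%, 3.24% and 0.497% in clusters 4, 5, 6, 7, 21 and 38.

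A list of 18 reported receptors and binding partners was followed in the same fits. By the mean of the Het libraries, Ptprz1, the receptor phosphatase, was highest in smooth muscle-like cells (74.5 and 152 CPM), though in Het1 mesenchymal cluster 28 was higher (182 CPM). Sdc1, a syndecan of epithelia, was highest in AT2-like cells (304 and 287 CPM), and Sdc2 in myofibroblast-like cells (245 and 252 CPM). Sdc3 (136 and 125 CPM) and Sdc4 (757 and 804 CPM), also syndecans, were highest in macrophage-like cells, and Lrp1, an endocytic receptor, in alveolar macrophage-like cells (423 and 425 CPM). Nrp1, a co-receptor for VEGF, was highest in arterial-like cells (689 and 730 CPM). Itga6, an integrin chain that binds laminin, was highest in general capillary-like cells (500 and 588 CPM), and Itgb1 in venous-like cells (1068 and 1229 CPM). Vcan, the proteoglycan versican, was highest in adventitial fibroblast-like cells (656 and 658 CPM). The highest class was monocyte-like cells for Itga4 (398 and 431 CPM), myofibroblast-like cells for Itgav (163 and 207 CPM), basophil or mast-like cells for Itgb3 (55.5 and 116 CPM), neutrophil-like cells for Notch2 (93.3 and 101 CPM) and B-lineage-like cells for Ncl, encoding nucleolin (1442 and 1141 CPM). The receptor tyrosine kinase genes Alk and Ltk were low even in their highest classes, with 0.909 and 0 CPM of Alk in mesenchymal cluster 28 and 5.26 and 7.94 CPM of Ltk in ciliated-like cells, and Gpc2, a glypican, stayed under 15 CPM in each class of the Het libraries.

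The share of partners called was above that of all genes in several fits, and most of those calls were lost in some setting. In the mesenchymal fit 16 of 18 were tested, 0 were higher and 1 was lower, with a median log2 fold change of -0.21 beside 0.00 over all genes and with 0.861% of all genes called. The lower gene was Ptprz1, at 46.2 and 23.9 CPM in the Het lungs, and 11.6, 13.1 and 16.0 CPM in the KO lungs (log2 fold change -1.33, SE 0.25, edgeR adjusted p = 0.0439), and this call was lost in 8 of 14 alternative settings, among them without Het1 (-0.77, adjusted p = 0.180), KO1 (0.0618), KO2 (0.141) or KO3 (0.0841). Among the mesenchymal classes, Nrp1, the co-receptor, was lower in alveolar fibroblast-like cells (log2 fold change -0.82, SE 0.12), with 274 and 217 CPM against 137, 139 and 134 CPM, and kept its call in all 14 alternative settings. Within cluster 1 alone it was not called (log2 fold change -0.48, edgeR adjusted p = 0.0908), and cluster 42 was a larger share of the class in every KO library, as given above. In myofibroblast-like cells Itgav was lower (163 and 207 against 95.6, 111 and 105 CPM) and Vcan higher (111 and 133 against 216, 248 and 201 CPM), the first not without Het2 (edgeR adjusted p = 0.161) and the second not without Het1 (edgeR adjusted p = 0.0875). With sex as a covariate neither was called (Itgav 0.113, Vcan 0.173).

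In the endothelial fit 15 were tested, 0 were higher and 2 were lower, beside 5.35% of all genes called, and the median log2 fold change of the list was -0.06. Itga4 was at 51.9 and 45.4 CPM in the Het and 20.6, 23.7 and 23.1 CPM in the KO lungs (log2 fold change -1.10, SE 0.13, edgeR adjusted p = 0.00272). Nrp1 was at 476 and 423 against 315, 269 and 261 CPM (log2 fold change -0.66, SE 0.11, edgeR adjusted p = 0.0104). Without Het1 the adjusted p was 0.0647 for Itga4 and 0.158 for Nrp1, and without Het2 it was 0.0574 for Nrp1. With sex as a covariate it was 0.0572 for Nrp1. Aerocyte-like cells, much fewer in the KO lungs, were high in both genes (Nrp1 657 and 607 CPM and Itga4 89.3 and 78.4 CPM in the Het lungs). In general capillary-like cells Nrp1 stood at 271 and 256 against 295, 206 and 256 CPM and Itga4 at 25.8 and 29.6 against 26.2, 21.6 and 26.7 CPM, with overlap (edgeR adjusted p = 0.898 and 0.892), and the part of class balance in the endothelial difference was not tested. In cycling general capillary-like cells 8 were tested, and Itga4 was called lower there too, at 62.0 and 66.3 against 19.1, 30.9 and 31.7 CPM, though not without Het1 (0.0907), Het2 (0.187), KO1 (0.0504) or KO2 (0.124), nor with sex as a covariate (0.316).

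In the epithelial fit 17 were tested at a median of 0.07, with Vcan higher (4.42 and 3.05 against 6.70, 9.17 and 9.16 CPM) and Itgb3 lower (5.58 and 7.47 against 0.869, 3.64 and 1.94 CPM). Vcan was not called without Het2 (0.127) or KO2 (0.0589), nor Itgb3 without Het1 (0.116), Het2 (0.232), KO1 (0.0517) or KO3 (0.0815). With cells of mixed markers left out neither was called (Vcan 0.179, Itgb3 0.324), and Itgb3 also not with sex as a covariate (0.0970), with doublets kept (0.0820) or at resolution 1 (0.188). In AT2-like cells 16 were tested, with 2 higher (Vcan and Lrp1) and 3 lower (Itga4, Itgb3 and Sdc3), beside 15.2% of all genes called. In cluster 19 alone Vcan (log2 fold change 1.17, edgeR adjusted p = 0.279) and Lrp1 (0.76, edgeR adjusted p = 0.333) did not pass, and Itga4, Itgb3 and Sdc3 were under the filter on low counts. All 5 passed in cluster 27, where Itgb1 and Nrp1 were called lower as well. Itgb3 was at 8.10 and 9.08 CPM in the Het and 0.557, 3.41 and 1.83 CPM in the KO lungs, and Itga4 at 10.6 and 9.99 against 3.34, 7.63 and 3.104 CPM. Endothelial markers moved the same way in that class, at 13.1% and 15.8% of their endothelial level in the Het and 4.92%, 3.86% and 5.19% in the KO lungs, and their part in these differences was not tested. Each of these 5 calls was lost without Het2, at an edgeR adjusted p from 0.0550 to 0.150, and those of Itga4, Sdc3, Lrp1 and Vcan also without Het1 (0.202, 0.105, 0.118 and 0.0586). That of Itga4 was lost without KO3 as well (0.0904). The stricter filter on cells took Sdc3 from -1.14 to -0.38 (adjusted p = 0.712), and with sex as a covariate Sdc3 (0.163), Lrp1 (0.132) and Vcan (0.0611) were not called. Leaving out cells of mixed markers lost Lrp1 (0.158) and Vcan (0.106), resolution 1 lost Lrp1 (0.600), and with doublets kept Lrp1 reversed to -0.45.

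In the immune fit 15 were tested, with 2 higher and 1 lower, at a median of -0.07 and beside 7.82% of all genes called. Sdc4 was at 62.7 and 60.1 CPM in the Het and 192, 149 and 141 CPM in the KO lungs (log2 fold change 1.33, SE 0.14, edgeR adjusted p = 0.00186) and kept its call in all 14 alternative settings. Nrp1 was higher (34.9 and 31.7 against 54.5, 46.9 and 48.5 CPM) and Lrp1 lower (270 and 265 against 187, 191 and 218 CPM), and neither was called without Het1 (0.0529 and 0.0619) or without Het2 (0.142 and 0.0527). With sex as a covariate Nrp1 was not called (0.103). The immune sum mixes classes too. Macrophage-like cells, highest in Sdc4, were 208 of 2347 and 191 of 2267 immune cells in the Het lungs and 292 of 1113, 333 of 1802 and 388 of 2037 in the KO lungs, and within them Sdc4 was not called (757 and 804 against 953, 945 and 868 CPM, edgeR adjusted p = 0.615). Alveolar macrophage-like cells, highest in Lrp1, numbered 135 and 146 against 4, 9 and 21. The part of this balance in the immune differences was not tested. Within the immune classes Vcan was called higher in 4 fits, those of clusters 5, 6, 7 and 21. Sdc4 was higher in cluster 38 and Ncl in cluster 5, Sdc3 was lower in macrophage-like cells, and Itga6 and Lrp1 were lower in cluster 7. These immune class calls were not followed through the alternative settings, so how far they hold is not known here. The number of genes called in such fits varied between settings, from 2 to 197 in cluster 6 (62 as reported) and from 4 to 150 in cluster 38 (40).

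The genes whose levels followed Mdk most closely over the 28 classes, by Pearson's r of log2(CPM + 1) in the mean of the Het libraries, were Clip3 (0.957), Boc (0.938), Fxyd1 (0.933), Ndrg2 (0.928) and Kdelr3 (0.928), among 8025 genes compared. For Ptn they were Igdcc4 (0.946), Vegfd (0.946), Pcolce (0.931), Col11a1 (0.929) and Mfap5 (0.927). Boc is a co-receptor of Hedgehog signalling, and Pcolce and Col11a1 act in collagen. Vegfd and Mfap5 had been used as class markers. Of these top 5, the mean of all 5 libraries kept 1 for Mdk and 3 for Ptn, and log2(CPM + 10) kept 2 and 4. Mdk and Ptn followed each other with r = 0.869. The classes share libraries and differ in depth, and these values are descriptions over 28 classes.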

How the data were processed

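The authors' deposited tables hold raw UMI counts, as whole numbers for each gene in each barcode, from 10x 3′ libraries. They were made with Cell Ranger 4.0.0 and mm10, per the submitters' processing notes; the annotation release is not given in the sources used here. Cells needed 500 genes or more and no more than 15% of UMIs from mitochondrial genes, and doublets scored against simulated ones were removed at 0.8% per 1000 cells. Cells were clustered with scanpy 1.11.5 (2000 variable genes without Mdk and Ptn, 30 components, 15 neighbours, Leiden resolution 2). Clusters were named where at least 3 markers were found in 20% of their cells, and parts of that naming rule were chosen with the clusters in view. Clusters carrying markers of a second lineage stayed outside the lineages.

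UMIs were summed per library for units with at least 30 cells in each library, and fitted over all genes with edgeR 4.0.16 (TMM, filterByExpr, quasi-likelihood, two-sided, Benjamini-Hochberg, called at an adjusted p under 0.05; R 4.3.3). CPM are UMIs per 1000000 UMIs of the sum. DESeq2 1.42.0 was an alternative. The fits were tested on simulated data. 3′ UTRs came from GENCODE M21 (GRCm38). Genes named are Mdk, Ptn, the partners called, each partner's highest class and the 5 genes most like each member. The members and lists were chosen with earlier results of these data known.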

Additional observations from a re-analysis of the deposited data

Results flagged for a closer look

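Library, lineage and class sums with a fit were compared where the gene passed the filter on low counts. Ptn and Mdk each had 1 such sum in which every knockout library lay below both Het libraries. In others every knockout library lay above them. These differences of direction were not tested. For Ptn it was the general capillary-like class, where the ratio of the KO to the Het mean was 0.57, from 8 to 12 UMIs in each library. The opposite order held in 5 tested sums, those of the whole library, the mesenchymal cells, the AT2-like cells, the adventitial fibroblast-like cells and mesenchymal cluster 28. Some of these sums share cells. Single clusters of a named class were not counted, and the opposite order held in alveolar fibroblast-like cluster 1 and AT2-like cluster 27 too. Below the filter on low counts, Ptn was also lower in every knockout library of the myofibroblast-like cells (ratio 0.177, from 1 to 13 UMIs). For Mdk it was immune cluster 21, led by Gpr171, Plet1os and S100a4, with a ratio of 0.572, against 11 sums with the opposite order. Those 11 include the whole library, the endothelial sum and the general capillary-like and cycling general capillary-like classes. Mdk was chosen for its difference in such cells and is described there without a test. Some of the 11 sums for Mdk also share cells. The share of all genes with such orders was not computed, so these counts are no result about Mdk or Ptn.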

How the results depend on the processing

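All values here are log2 fold changes of KO over Het, with edgeR adjusted p where given. Leaving out 1 library in turn gave 0.72 to 1.16 for Mdk in the whole library, 1.27 to 1.69 in the epithelium, 1.65 to 2.29 in the endothelium, -0.61 to 0.76 in mesothelial-like cells and -0.0031 to 0.46 in mesenchymal cluster 28. For Ptn it gave -0.31 to 0.27 in the epithelium, 1.15 to 1.78 in AT2-like, 0.51 to 0.60 in adventitial fibroblast-like, -0.18 to 0.43 in ciliated-like and -0.40 to 0.021 in mesothelial-like cells; a lone Het library was then assumed to vary like the KO libraries.

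With cells carrying another lineage's markers left out, Mdk was 2.84 in the endothelium and 3.66 in general capillary-like cells, and Ptn 0.49 in the epithelium. With a stricter filter (1000 genes or more, mitochondrial share up to 10%), Mdk was 0.94 in general capillary-like cells, and Ptn 0.14 in the epithelium, 1.20 in AT2-like, 0.64 in adventitial and -0.58 in alveolar fibroblast-like cells. With doublets kept, Ptn was 0.29 in the epithelium, 0.57 in adventitial fibroblast-like, 0.58 in club-like and 0.17 in general capillary-like cells, and Lrp1 -0.45 in AT2-like cells. At cluster resolution 1 Ptn was 0.59 in adventitial and -0.92 in alveolar fibroblast-like cells. With sex as a covariate Ptn was 0.56 in adventitial fibroblast-like, -0.59 in ciliated-like and -0.33 in smooth muscle-like cells. With free RNA subtracted, Mdk was -0.0062 in the immune sum and Ptn -1.01 in general capillary-like cells. DESeq2 called Ptn in the mesenchyme (0.61, adjusted p = 0.00210) and over the whole library (1.21, adjusted p = 0.0233). The cause was not tested for any of these changes. Without the filter on low counts, Ptn also passed in club-like (adjusted p = 0.0105), smooth muscle-like (1.07e-06) and cluster 28 cells (0.00212).

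For libraries sharing a replicate number, deviations from the group mean had r = -0.114 for number 1 and -0.185 for number 2, over 17731 genes. The deviations of the 2 Het libraries are exact opposites of each other. These values therefore cannot tell whether the numbers stand for a shared litter, day or batch. With the replicate number as a block, Mdk was 0.13 in mesothelial-like cells and passed in alveolar fibroblast cluster 1 (0.43, adjusted p = 0.00592), and Ptn passed in alveolar fibroblast-like (0.44, 0.0165), smooth muscle-like (1.71, 0.00218) and cluster 28 cells (0.86, 0.0240) and not in AT2-like cluster 27 (0.91, 0.0821).

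Genes called ranged over the alternatives from 0 to 2118 in the whole library (653 as reported), 159 to 2307 in the epithelium (1164), 103 to 1557 in the endothelium (627), 10 to 176 in the mesenchyme (110), 235 to 1253 in immune cells (1087), 110 to 2858 in AT2-like (2022), 6 to 193 in adventitial fibroblast-like (24) and 0 to 606 in general capillary-like cells (29). Thinning to 5000 in place of 2000 UMIs was compared in 3 classes: the mean KO minus Het share of cells with an Mdk UMI went from 8.27 to 13.6 percentage points in AT2-like, 5.02 to 11.5 in general capillary-like and 11.5 to 7.02 in adventitial fibroblast-like cells, and that of Ptn in general capillary-like cells from -1.43 to -0.22. Counts under 20 UMIs, as for Ptn in capillary and Mdk in AT1-like cells, limit those values.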
